A study of Mus musculus with 18 samples.

Results

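Imprinted genes are expressed mainly from a single parental allele, and 39 autosomal imprinted genes of 20 loci were followed here in splenic CD11b+ and CD4+ cells of mice with the Dnmt3a R878H mutation. A gene's members were the regions, called rows below, that overlap its body or the 5 kb on each side. Such rows made up 759 of the 411770 rows deposited for CD11b+ cells and 934 of the 553467 rows for CD4+ cells. All 39 genes had at least 1 row in both tables. Rows with more than 10 CpG cytosines, counted on both strands, carry the results: 358 of 172177 in CD11b+ cells and 461 of 247222 in CD4+ cells. The 39 genes were divided by role into the 20 that hold a methylation imprint near a start or, for H19, upstream of it, and the 19 that share a locus with one or, like Rasgrf1, were given no such site here.

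The study measured DNA methylation by whole-genome bisulfite sequencing (WGBS), which reads methylated cytosines as those that bisulfite leaves intact. Its 18 library entries were 4 for Dnmt3a+/+ (WT) CD11b+ cells, 4 for WT CD4+ cells, 4 for mutant CD4+ cells and 6 for mutant CD11b+ cells. The labels write the mutant genotype as Dnmt3aR878/+, and the study's text as Dnmt3a R878H/+. The 6 mutant CD11b+ entries stand for 4 mice, since replicates 3 and 4 each have a pair of entries. All mice were C57BL/6, and the cells were taken from spleen on magnetic columns. The mutant allele was a floxed R878H allele switched on by Vav1-iCre, a recombinase active in blood-forming cells, so both cell types of a mutant mouse descend from heterozygous cells. WT controls in that study were either Cre+ Dnmt3a+/+ or Cre- Dnmt3a fl-R878H/+ mice, which means that some controls may carry the unrecombined allele. DNMT3A is a de novo DNA methyltransferase, and R878H is the mouse counterpart of the most frequent DNMT3A mutation of clonal hematopoiesis.

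Genomic imprints are methylated on the allele from one parent and unmethylated on the allele from the other. They are set in the germ line by DNMT3A with DNMT3L, survive the loss of methylation in the early embryo because ZFP57 and TRIM28 hold DNMT1 at them, and are then copied at each division by DNMT1 with UHRF1. Because a bulk measurement averages both alleles, an intact imprint reads near the middle of the methylation scale. Rows with a WT mean of 35% to 65% were therefore kept apart as intermediate rows. The same mean can also arise where some cells are methylated and others are not, and alleles were not separated in these data.

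The sequences below are the GRCm38 plus strand of 7 intermediate rows, with each CpG in capitals, since its cytosines are what was measured. A row that begins on the minus-strand cytosine of a CpG shows only a g there. The first 6 lie at imprint sites, and the last is shown because it lies in an imprinted gene but away from the sites and had a mean over 20 points lower in mutant cells. The H19 row (chr7:142580547-142580747, between genes, CD4+ cells) lies upstream of H19, on the minus strand. Kcnq1ot1 (chr7:143295858-143296076, CD11b+ cells) and Peg13 (chr15:72809718-72809925, CD4+ cells) are exonic rows just inside noncoding genes. The Airn row (chr17:12741452-12741655, CD11b+ cells) is intronic to Airn and to Igf2r on the other strand. The Inpp5f internal start (chr7:128688135-128688258, CD4+ cells) and the Mest row (chr6:30736838-30736975, CD4+ cells) are intronic. The Kcnq1 row (chr7:143106575-143106811, CD11b+ cells) overlaps a Kcnq1 exon at its first start.
H19 upstream region: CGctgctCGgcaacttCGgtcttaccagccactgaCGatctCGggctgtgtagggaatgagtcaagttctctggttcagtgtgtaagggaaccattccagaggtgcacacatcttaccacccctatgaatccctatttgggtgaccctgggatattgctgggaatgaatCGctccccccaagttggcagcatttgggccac
Kcnq1ot1 start: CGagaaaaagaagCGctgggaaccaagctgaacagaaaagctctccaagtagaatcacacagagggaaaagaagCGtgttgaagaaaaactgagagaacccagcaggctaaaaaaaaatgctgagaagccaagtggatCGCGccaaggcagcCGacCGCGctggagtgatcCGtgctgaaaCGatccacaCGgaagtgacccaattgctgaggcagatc
Airn start: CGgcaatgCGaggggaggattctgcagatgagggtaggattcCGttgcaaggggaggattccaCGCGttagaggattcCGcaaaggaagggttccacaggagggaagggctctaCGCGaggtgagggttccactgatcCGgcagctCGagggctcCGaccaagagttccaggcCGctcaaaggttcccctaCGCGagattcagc
Inpp5f internal start: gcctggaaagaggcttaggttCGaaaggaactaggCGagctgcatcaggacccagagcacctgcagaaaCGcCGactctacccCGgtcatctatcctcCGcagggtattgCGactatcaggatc
Peg13 start: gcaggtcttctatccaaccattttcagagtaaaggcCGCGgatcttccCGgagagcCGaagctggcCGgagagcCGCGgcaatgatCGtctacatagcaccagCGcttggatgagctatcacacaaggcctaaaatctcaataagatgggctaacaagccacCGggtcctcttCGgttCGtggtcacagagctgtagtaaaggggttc
Mest intron: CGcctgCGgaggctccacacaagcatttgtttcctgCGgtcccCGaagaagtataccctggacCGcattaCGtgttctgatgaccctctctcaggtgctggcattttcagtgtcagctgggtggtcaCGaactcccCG
Kcnq1 start: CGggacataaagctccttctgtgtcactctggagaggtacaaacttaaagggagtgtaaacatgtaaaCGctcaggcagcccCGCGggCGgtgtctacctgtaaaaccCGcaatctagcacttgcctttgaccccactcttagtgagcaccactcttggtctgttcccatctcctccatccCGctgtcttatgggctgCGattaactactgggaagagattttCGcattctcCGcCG

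From WT to R878H/+ cells these rows went from 44.1% to 55.9% (H19), 55.3% to 51.3% (Kcnq1ot1), 41.9% to 34.9% (Airn), 52.0% to 48.1% (Inpp5f internal start), 54.3% to 45.5% (Peg13) and 54.5% to 50.1% (Mest), and outside the sites from 46.4% to 26.1% (Kcnq1). They were picked as examples and do not show the range at the sites. Printed stretches held between 6 and 14 CpG dinucleotides.

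Each value is the mean that the authors gave for a group of mice, and neither the spread between mice nor the read depth is part of the tables, so no error and no test across mice can be given. Differences are R878H/+ minus WT in percentage points. The tables do not name their groups; the first group was read as WT from the study's plots of average methylation, and every direction below rests on that reading. No row differs by less than 0.1 points, so regions with equal means are not listed. Why other CpGs are not listed is unknown, so an unlisted CpG cannot be read as unchanged. At the 20 imprint sites, listed rows covered between 12.1% and 65.5% of the CpGs in CD11b+ cells (median 37.0%) and between 16.1% and 70.3% in CD4+ cells (median 36.4%). Cell identity was checked on markers: the median WT level was lower in CD4+ cells for 8 of the 10 T cell genes with rows in both tables, Lck for example at 66.9% against 88.6%, and lower in CD11b+ cells for 8 of 12 myeloid genes, Mpo at 67.6% against 91.0%. The exceptions were Cd3e and Tcf7 among T cell genes, and Itgam, Csf3r, Tyrobp and Cybb among myeloid genes. Of 6 genes of B, erythroid and natural killer cells, 5 had the lower level in CD4+ cells. In bulk cells, another mix of cell types and another methylation level per cell cannot be told apart.

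Most rows of the imprinted genes had lower means in R878H/+ cells, as did most of both tables. Over all 358 rows the median difference in CD11b+ cells was -7.05 points, beside -6.60 over the whole table, and 325 rows (90.8%) were lower in R878H/+ cells. Losses above 20 points were called in 33 rows, or 9.22%, where 7.74% of all rows of the table were called, and gains above 20 points in 4 rows, where 0.298% were called. In CD4+ cells the median was -8.07 points beside -6.85, 435 of 461 rows (94.4%) were lower, 51 rows (11.1%) were called as losses against 6.89% of the table, and 1 row as a gain against 0.00769%. The losses nearest the limit of 20 points were -19.8 (Igf2r) and -20.2 (Plagl1) in CD11b+ cells, and in CD4+ cells -19.9 (Trappc9) and -20.05 (Grb10). All such counts run over rows of the same mice and are a description.

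Intermediate rows of the imprinted genes had smaller differences than intermediate rows elsewhere. In CD11b+ cells 72 rows of 17 loci were intermediate, with a median of -8.63 points, where the 17611 intermediate rows of the whole table had -16.1. Losses above 20 points made up 13.9% of them (10 rows), where 34.2% of all intermediate rows were called, and 2 gains stood beside 13 in the whole table (0.0738%). In CD4+ cells the 76 intermediate rows had a median of -11.2 points beside -15.2, with 15 losses (19.7%) where 30.2% were called, and 1 gain where 0.0591% were called. The nearest rows under the limit of 35%, of Zrsr1 and of H19, went from 28.7% to 36.9% in CD11b+ cells and from 34.2% to 52.3% in CD4+ cells, and the nearest above it were a Gnas row (37.8% to 55.8%) and a Herc3 row (38.0% to 28.8%). At the upper limit, rows of Grb10 (64.3% to 55.7%) and Igf2r (64.9% to 38.0%) lay just under it, and rows of Igf2r (65.2% to 51.9%) and Kcnq1 (65.1% to 49.4%) just above.

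Position within the locus divided the intermediate rows. At imprint sites, meaning within 2 kb of a start of the gene that carries the imprint or from 1 to 5 kb upstream of H19, the median was -7.00 points over 49 rows in CD11b+ cells and -8.04 over 46 rows in CD4+ cells. Away from the sites, in the same genes and their neighbors, it was -14.8 over 23 rows and -19.0 over 30 rows. Intermediate autosomal rows in no imprinted gene had -16.0 and -15.0, so in CD4+ cells the rows off the sites had the larger loss. Counting each gene once, the medians at the sites were -4.70 over 15 genes and -2.12 over 16. Gnas and Nespas entered separately there although they share site rows, and each had a median of 6.27 points in CD4+ cells. Counting each locus once was not done for the sites. Every annotated start of a carrier gene was used, including starts that do not carry the imprint. Without Gnas, Nespas, Grb10, Plagl1, Inpp5f and Mest, the site medians were -6.15 and -7.07, over 21 rows in each cell type. The WT mean that defines these rows also enters their difference, so the rows were split again on the WT mean of the overlapping row of the other cell type, which gave -8.25 (41 rows) and -8.48 (36 rows) at the sites and -14.9 (19 rows) and -17.5 (25 rows) off them. Higher means in R878H/+ cells were found in 17 of 49 site rows (34.7%) and 14 of 46 (30.4%), but in 3.15% and 3.34% of all intermediate rows of the tables. That background was not matched for CpG density, which is taken up below. In all, 1 of 49 and 3 of 46 site rows were losses above 20 points, against 9 of 23 and 12 of 30 away from the sites. In R878H/+ cells 41 of 49 site rows (83.7%) and 42 of 46 (91.3%) still lay between 35% and 65%, where 52.2% and 50.0% of the rows off the sites and 52.5% and 57.2% of all intermediate rows did.

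**Figure D1:**
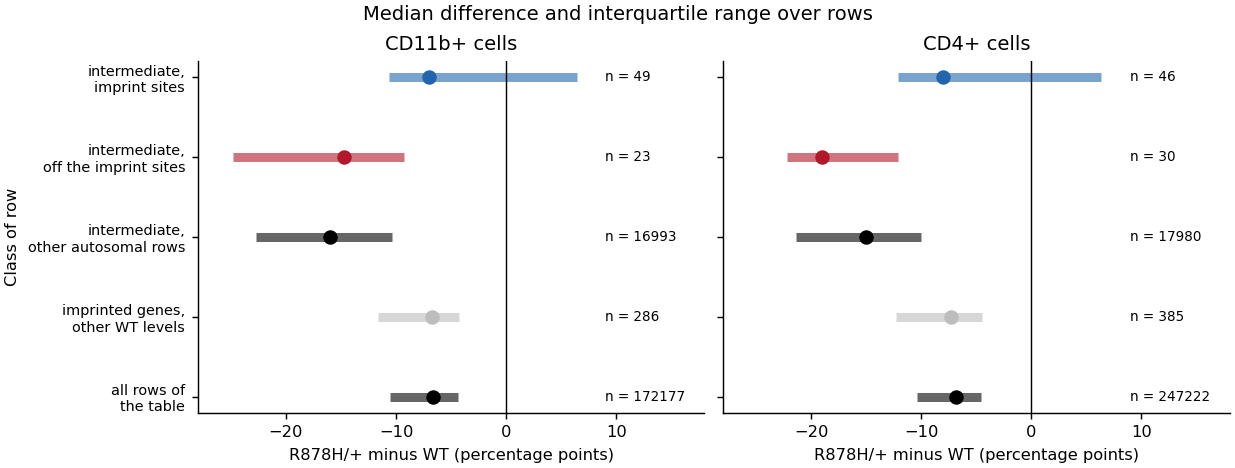
Median difference (points) and interquartile range (bars) over rows with more than 10 CpG cytosines, R878H/+ minus WT in percentage points, for CD11b+ cells (left) and CD4+ cells (right); n is the number of rows. The bar of the intermediate rows at imprint sites crosses 0 in both cell types, while those of intermediate rows off the sites (medians -14.8 and -19.0) and of other autosomal rows do not.

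**Figure D2:**
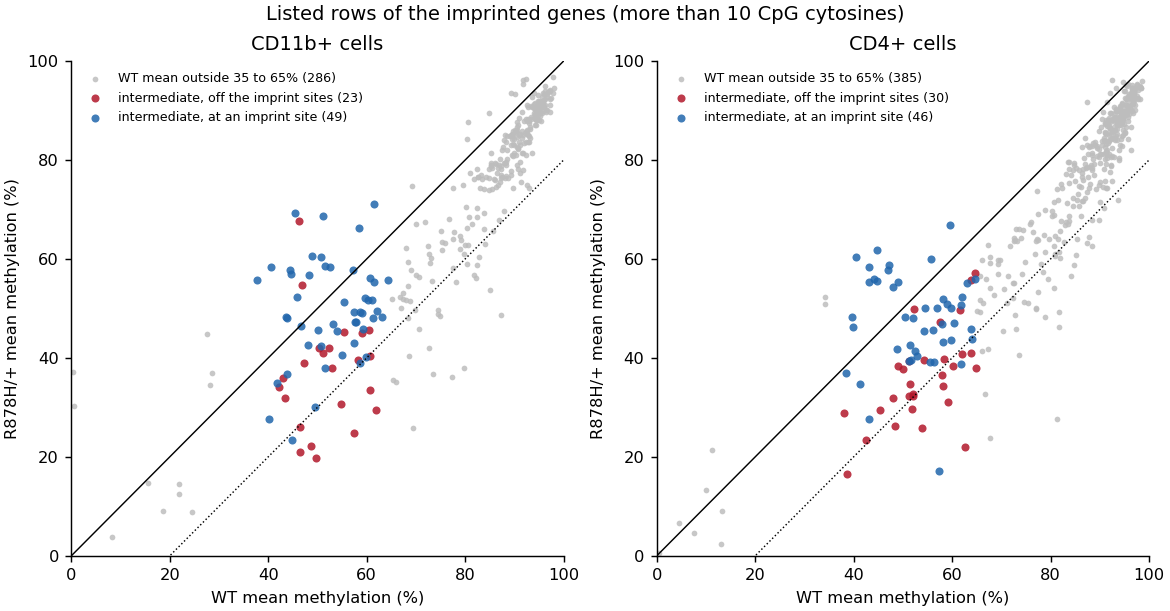
Mean methylation in percent of each row of the imprinted genes in WT cells (horizontal axis) and R878H/+ cells (vertical axis). The solid line marks equal means and the dotted line a loss of 20 points; 17 of 49 and 14 of 46 blue points (imprint sites) lie above the solid line, and most red points (off the sites) lie near the dotted line or under it.

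The locus by locus picture starts with the imprints of the paternal allele. H19, a noncoding RNA of the maternal allele, is governed by a control region upstream of its start that keeps Igf2, a fetal growth factor gene, silent on the maternal chromosome. Its single intermediate row in CD11b+ cells (chr7:142580099-142580263) went from 45.8% to 52.2%. In CD4+ cells all 3 intermediate rows were higher in R878H/+ cells, at 39.8% to 46.2%, 44.1% to 55.9% and 47.1% to 58.8%, as was the row just under the limit of 35% named above, which had the second largest gain of all rows of these genes in CD4+ cells (18.2 points). Rows of exactly 10 CpG cytosines had both signs, with a pair in CD11b+ cells that went from 37.2% to 56.4% and from 55.8% to 45.2% and 1 in CD4+ cells that went from 63.1% to 55.5%. At Igf2 itself, 3 intermediate CD4+ rows lay lower, at 60.2% to 38.4%, 52.0% to 32.3% and 48.0% to 31.8% (chr7:142655666-142656330 overlaps an Igf2 exon and start), so that CD4+ cells had higher means at the control region and lower means at Igf2. Meg3, a maternally expressed noncoding RNA, had 1 intermediate row in CD4+ cells, ending 37 bases before its annotated start, which went from 46.9% to 57.8%. In CD11b+ cells Meg3 had none with more than 10 CpG cytosines, and 2 rows of 10 were higher too, from 54.6% to 67.6% and from 51.3% to 59.3%. The 5 intermediate rows at H19 and Meg3 (1 in CD11b+ and 4 in CD4+ cells) were thus higher in R878H/+ cells, with a median of 11.2 points in CD4+ cells. The Meg3 start is a secondary imprint, acquired after fertilization.

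**Figure D3:**
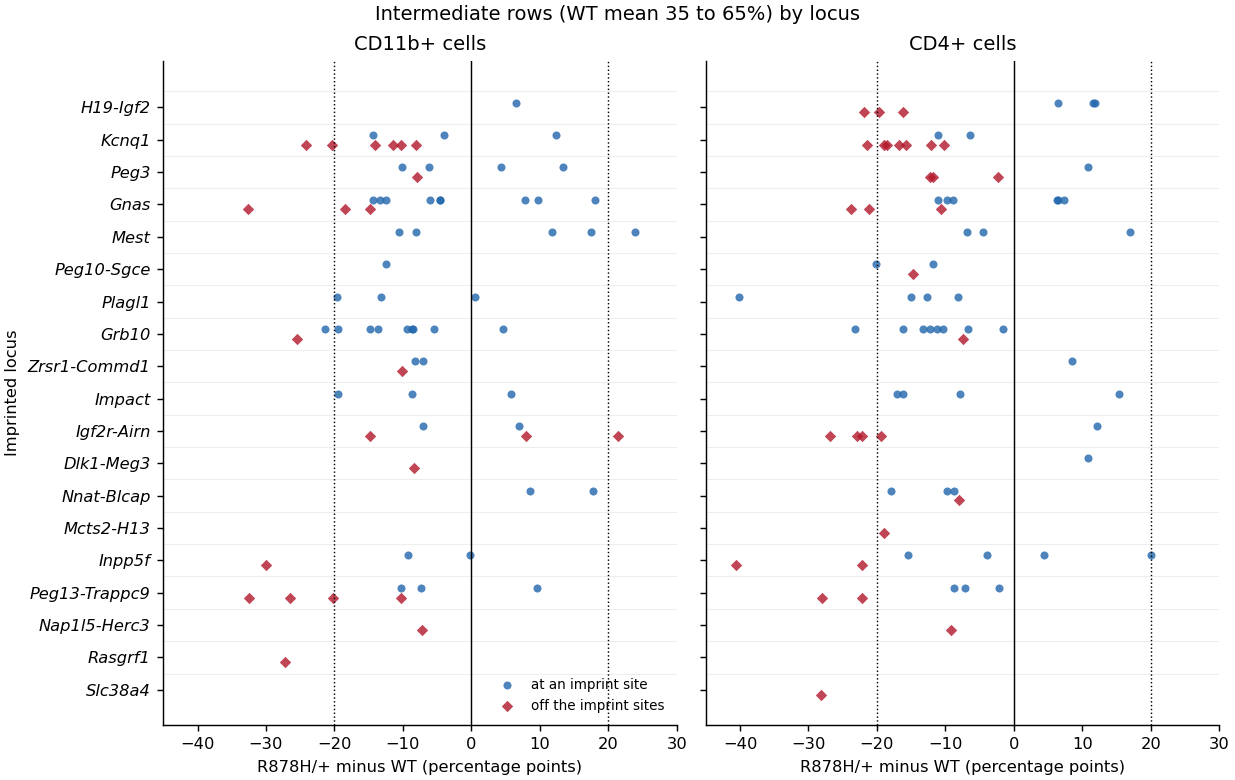
Difference of each intermediate row (WT mean 35% to 65%), R878H/+ minus WT in percentage points, by locus, for rows at imprint sites (blue circles) and off them (red diamonds); dotted lines mark 20 points. Within Kcnq1, Gnas, Inpp5f and Peg13-Trappc9 the median of the diamonds lies to the left of that of the circles in both cell types.

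Imprints at noncoding RNAs of the paternal allele, methylated on the maternal one, came next. Kcnq1ot1, an antisense RNA that silences its domain, had 3 rows in CD11b+ cells, at 57.4% to 43.1%, 55.3% to 51.3% and 44.6% to 57.0%, the last across its start, and in CD4+ cells 58.2% to 51.8% and 52.4% to 41.3%. Differences had both signs in CD11b+ cells and were under 15 points in both cell types. Airn, which silences Igf2r, had adjoining rows of opposite sign in CD11b+ cells (51.6% to 58.6% across the start, then 41.9% to 34.9%) and 1 row in CD4+ cells that covers the start and was higher (43.2% to 55.3%). Peg13, which lies in an intron of Trappc9, had 3 rows in each cell type. In CD11b+ cells they went from 57.7% to 47.3%, 50.7% to 60.3% and 59.6% to 52.2%, and in CD4+ cells from 48.8% to 41.7%, 54.3% to 45.5% and 50.5% to 48.2%. None of these Kcnq1ot1, Airn and Peg13 rows differed by 20 points or more.

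The Gnas locus encodes the stimulatory G protein alpha subunit from several starts, with the antisense RNA Nespas between them. In CD11b+ cells its 9 site rows fell in 3 groups along chromosome 2. The first, between 174285013 and 174286395, near the outermost Gnas start, where a secondary imprint of the paternal allele is known, was lower throughout (55.0% to 40.6%, 62.0% to 49.5% and 61.5% to 55.4%). The second, between 174296218 and 174297856, just upstream of Nespas, was largely higher (60.7% to 56.0%, 37.8% to 55.8%, 58.4% to 66.2% and 61.4% to 71.2%). The last, from 174327121 to 174329092, near a Gnas start farther along the gene, was lower again (50.1% to 45.6% and 59.2% to 45.9%). The 6 rows in CD4+ cells showed the same arrangement: 51.4% to 42.5% in the first stretch, then 57.9% to 46.8% inside Nespas, then higher means upstream of Nespas (48.0% to 54.4%, 59.5% to 66.8% and 49.0% to 55.2%), and 59.8% to 50.0% near the farther start. Upstream of Nespas 6 of 7 rows of the 2 tables were therefore higher in R878H/+ cells.

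Among protein-coding carriers of a maternal imprint, Mest, an alpha/beta hydrolase gene, had a median difference of 11.8 points above WT in CD11b+ cells. There its 5 rows went from 57.4% to 49.3%, 48.8% to 60.6%, 51.1% to 68.6%, 57.8% to 47.2% and 45.4% to 69.3%, so that neighboring rows had opposite signs. The last of them (chr6:30738358-30738487, intronic, 303 bases from a Mest start) was, at 23.9 points, the only gain above 20 points at an imprint site in CD11b+ cells. Its CD4+ rows were 44.8% to 61.8%, 54.5% to 50.1% and 56.9% to 50.1%; the first had the third largest gain of these genes in CD4+ cells. Peg3, a zinc finger gene that shares its start region with Usp29, gave 59.0% to 49.0%, 43.9% to 48.1%, 53.1% to 46.9% and 44.5% to 57.8% in CD11b+ cells and 44.7% to 55.6% in CD4+ cells. The signs at Peg3 were evenly divided in CD11b+ cells.

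Nnat, a membrane proteolipid gene in an intron of Blcap, had intermediate rows with differences of opposite sign in the cell types. Both its CD11b+ rows were higher in R878H/+ cells (48.2% to 56.8% and 40.6% to 58.4%), and all 3 CD4+ rows were lower (64.6% to 55.9%, 63.9% to 45.9% and 61.9% to 52.2%). These intermediate rows do not overlap between the tables, and the difference between cell types was not tested. Where listed rows of the site do overlap, both cell types were lower. A CD11b+ row with a WT mean above the intermediate range went from 77.6% to 58.1%. The CD4+ rows that overlap it went from 81.9% to 60.2% and from 64.6% to 55.9%. Zrsr1, a retrogene in an intron of Commd1, had 43.9% to 36.8% and 50.7% to 42.5% in CD11b+ cells and 39.8% to 48.2% in CD4+ cells, where the last 2 overlap and have opposite signs.

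Inpp5f, an inositol phosphatase gene, carries its imprint at an internal start. There the CD11b+ rows went from 46.6% to 46.5% and 61.0% to 51.8%, and the CD4+ rows from 52.0% to 48.1%, 55.6% to 60.1% and 40.4% to 60.4%. The last (chr7:128688530-128688582, exonic) was, at 20.1 points, the largest gain of these genes in CD4+ cells, whereas the overlapping CD11b+ row was lower. Another CD4+ row, 710 bases from the outer Inpp5f start, went from 43.1% to 27.7%. In an intron, away from the starts, 1 row in CD11b+ cells (42 CpG cytosines) went from 49.7% to 19.7% and a pair in CD4+ cells, over the same bases, from 62.6% to 22.0% and 48.4% to 26.2%. Within Inpp5f, then, intermediate rows at the internal start and in this intron ended at different levels in the same cells.

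The other coding carriers were lower more often. Grb10, an adaptor that restrains insulin receptor signaling, has several starts, and 8 of 9 site rows in CD11b+ cells and 8 of 8 in CD4+ cells were lower. Around the internal start, between 12025523 and 12026855 of chromosome 11, CD11b+ rows went from 48.1% to 42.6%, 63.1% to 48.3%, 64.3% to 55.7%, 58.7% to 49.2%, 43.6% to 48.2% and 60.3% to 51.6%. The CD4+ rows of that stretch went from 56.1% to 45.7%, 60.3% to 47.0%, 38.4% to 36.9%, 41.4% to 34.7%, 51.7% to 39.5% and 59.7% to 43.5%, and none of these 12 rows was called. A further CD4+ row of that stretch, 68 bases from the start and with a WT mean above the intermediate range, was called (75.4% to 51.1%). In the intron before it 1 row of each table was called, at 44.8% to 23.4% (1367 bases from a start) and 61.8% to 38.7% (1565 bases), while the rows across the outermost start went from 51.6% to 38.0% and 61.9% to 50.7%. The remaining CD11b+ row, 1807 bases from a start farther down the gene, went from 49.5% to 30.1%.

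Plagl1, a zinc finger transcription factor gene, held the largest loss at a site in both cell types. It lay at the outer Plagl1 start, which is counted because every annotated start was used. At its internal start, which carries the imprint, rows went from 61.3% to 48.1% and 57.2% to 57.7% in CD11b+ cells and from 59.0% to 50.9%, 52.9% to 40.3% and 58.2% to 43.3% in CD4+ cells. At the outer start, far upstream, the CD11b+ intermediate row went from 58.7% to 39.0% and the CD4+ row (chr10:13060987-13061093, intronic) from 57.4% to 17.2%, a difference of -40.2 points. A CD11b+ row over the same stretch (chr10:13061038-13061124), with a WT mean just above the intermediate range, went from 69.3% to 25.9%, the largest loss of all 358 rows. The largest loss at the outer Plagl1 start thus exceeded every loss at its internal start in both tables.

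Peg10, a retrotransposon-derived gene, had 1 row in CD11b+ cells (40.1% to 27.6%) and 2 in CD4+ cells (64.0% to 43.9%, called, and 51.1% to 39.3%). Impact, a regulator of translation, had rows of 52.6% to 58.4%, 54.1% to 45.4% and 59.8% to 40.2% in CD11b+ cells. Its CD4+ rows were 55.4% to 39.2%, 56.4% to 39.2%, 43.0% to 58.4% and 63.0% to 55.1%. Overlapping rows of Impact had losses of similar size in both tables (-19.5 and -17.1 points), and a neighboring CD4+ row the opposite sign.

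At 5 of the 20 sites in CD11b+ cells and 4 in CD4+ cells no intermediate row with more than 10 CpG cytosines was listed: Snrpn, Mcts2, Nap1l5 and Slc38a4 in both, and Meg3 in CD11b+ cells. Snrpn, a splicing ribonucleoprotein gene whose imprint governs a wide domain, had listed rows over only 20.7% and 16.1% of the CpGs of its site. One row of 10 CpG cytosines there went from 64.3% to 48.1% in CD11b+ cells. Rows at Mcts2, a retrogene in an intron of H13, had WT means of 88.0% to 96.4% in CD11b+ cells and 91.9% to 96.6% in CD4+ cells. The Nap1l5 island, another retrogene, stood at 71.3% to 56.5% and 74.2% to 57.1% in CD4+ cells. Slc38a4, an amino acid transporter gene, had rows of 67.3% to 53.1% in CD11b+ cells and 69.4% to 59.0% in CD4+ cells. Its intermediate rows of 10 CpG cytosines were higher, at 61.9% to 63.4% in CD11b+ cells and 59.6% to 67.4% in CD4+ cells.

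Called rows of imprint sites with WT means above 65% lay mostly at Plagl1. In CD11b+ cells these were 3 Plagl1 rows, 69.3% to 25.9%, 82.2% to 56.1% and 69.9% to 49.7%, of which the last holds the outer start. In CD4+ cells 4 Plagl1 rows were called, 70.2% to 45.4%, 87.8% to 64.4%, 74.7% to 51.4% and 78.4% to 57.3%, with the Grb10 row at its internal start (75.4% to 51.1%) and 1 in an intron of Blcap beside Nnat (81.9% to 60.2%). All other 38 CD11b+ and 39 CD4+ site rows above 65% differed by 20 points or less.

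Away from the sites, the 23 intermediate rows of CD11b+ cells and 30 of CD4+ cells lay in 11 and 13 loci. All 30 CD4+ rows and 21 of 23 CD11b+ rows were lower in R878H/+ cells. Kcnq1, a potassium channel gene, went at its first start from 46.4% to 26.1% in CD11b+ cells and from 45.3% to 29.6% in CD4+ cells, and in an intron from 54.8% to 30.7% in CD11b+ cells. Grb10 had an intronic row of 46.4% to 20.9% in CD11b+ cells, and Slc38a4 one of 59.2% to 31.1% in CD4+ cells. Trappc9, a vesicle trafficking gene, had intronic rows of 62.0% to 29.5% and 48.7% to 22.2% in the CD11b+ table and, in the CD4+ table, of 53.9% to 25.9% and 51.9% to 29.6%. Within Gnas, intronic rows went from 57.4% to 24.7% in CD11b+ cells and from 62.0% to 40.8% in CD4+ cells. Rasgrf1, a guanine nucleotide exchange factor gene with a paternal imprint for which no site was set here, had 1 intermediate CD11b+ row (60.7% to 33.5%), intronic and far from its start. Smaller losses stood at Cdkn1c, the gene of the cell-cycle inhibitor p57, with -8.13 to -11.4 points in 3 CD11b+ rows and 58.3% to 39.8% and 51.3% to 39.3% in CD4+ cells, and at Herc3, a ubiquitin ligase gene (43.1% to 35.8% and 38.0% to 28.8%). Where a locus had intermediate rows of both kinds, the median off the site was below that at the site in 7 of 8 loci in CD11b+ cells and 7 of 10 in CD4+ cells. The exceptions were Igf2r-Airn in CD11b+ cells, and Peg10-Sgce, Grb10 and Nnat-Blcap in CD4+ cells, each of the last 3 with 1 row off the site. Among the loci with the lower median off the site, Peg3, Grb10, Zrsr1-Commd1 and Inpp5f also had only 1 row there in CD11b+ cells. Peg3 and Igf2r-Airn had only 1 row at the site in CD4+ cells.

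**Figure D4:**
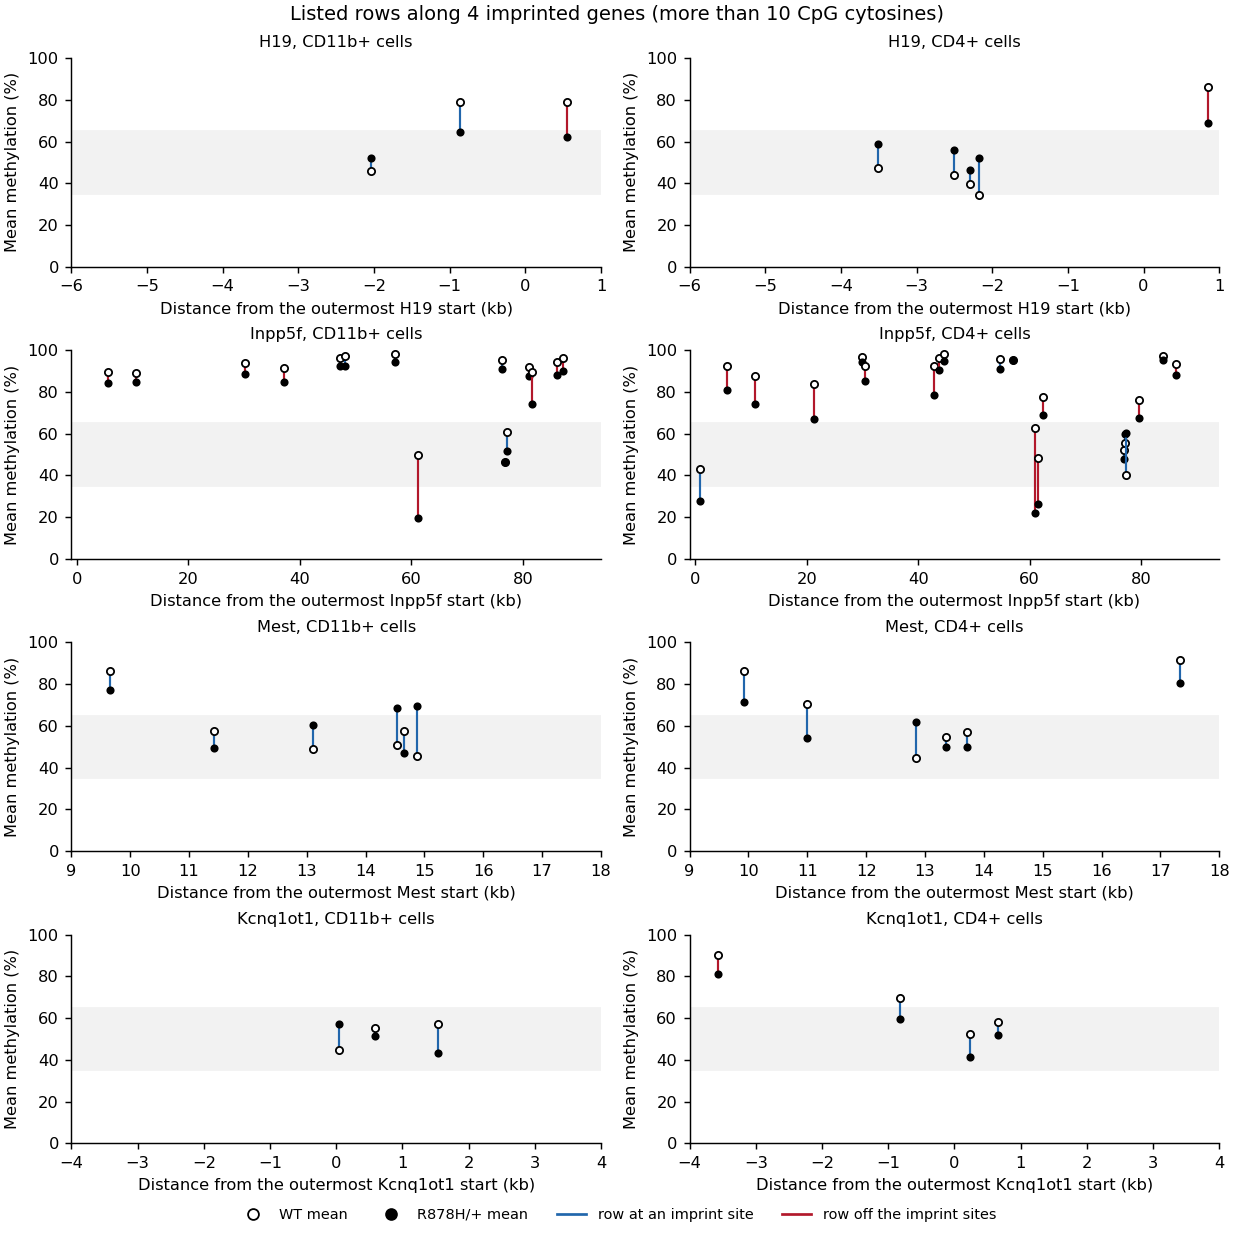
Mean methylation (percent) of each listed row with more than 10 CpG cytosines against the distance in kb of its midpoint from the outermost annotated start, for H19, Inpp5f, Mest and Kcnq1ot1; open circles are WT, filled circles R878H/+, and the grey band spans 35% to 65%. Upstream of H19, rows with the open circle in the band have the filled circle above the open one. Filled circles of the Inpp5f intron rows off the site lie below the band, while most at the internal start near 77 kb lie inside it.

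The start of Igf2r, the receptor that clears IGF2, becomes methylated on the silent paternal allele after fertilization, so it is a secondary imprint, and unlike Meg3 it was not counted among the sites. In CD11b+ cells the 2 intermediate rows there were higher in R878H/+ cells, at 46.8% to 54.7% (across the start) and 46.3% to 67.8%, the latter with a gain of 21.4 points. In CD4+ cells the overlapping row (chr17:12769575-12769762) was lower, 52.1% to 32.7%. The 2 cell types thus stood on opposite sides of WT at the same bases, which was not tested. Farther into Igf2r, the rows of both cell types near 12713272 of chromosome 17 were lower (52.9% to 38.0% and 63.9% to 41.0%).

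Overlapping rows allowed both tables to be set side by side, although cells of both kinds may come from the same mice. Of 199 overlapping pairs with more than 10 CpG cytosines in both, 176 were lower in both cell types, 5 higher in both and 18 opposite. A pair needed only 1 shared base, and a row that overlaps several rows of the other cell type enters several pairs. The same counts over all overlapping rows of the whole tables were not made. Among 29 pairs that were intermediate in both and lay at a site, 15 were lower in both, 3 higher in both and 11 opposite, and 1 pair (Grb10) was called in both. Among 11 such pairs off the sites, 10 were lower in both, 1 was opposite (the Igf2r start) and 3 were called in both, with medians of -14.9 and -21.4 points.

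Rows with WT means outside 35% to 65% were mostly lower as well. Their median was -6.72 points over 286 rows in CD11b+ cells and -7.30 over 385 in CD4+ cells, and 272 and 373 of them were lower. Losses above 20 points were called in 8.04% and 9.35% of them. Among all rows of the tables with WT means over 65%, medians were -6.20 and -6.57 points, and 4.82% and 5.1% were called. Among those under 35%, medians were -5.85 and -6.23 points, and 2.91% and 1.96% were called as losses. Gains above 20 points were called in 498 of 7631 such rows in CD11b+ cells and 8 of 7805 in CD4+ cells. The whole tables held 513 and 19 such gains, so most gains of the CD11b+ table lay in rows under 35%. The largest losses among all rows, apart from Plagl1, were Kcnq1 introns in CD11b+ cells (chr7:143408699-143409100, 79.7% to 37.9%, and chr7:143154449-143154861, 77.2% to 36.2%). In CD4+ cells a row inside the latter stretch went from 81.3% to 27.6%, the largest loss there, followed by a row of the Notch-like growth regulator Dlk1 that overlaps an exon and a start (chr12:109453995-109454358, 67.6% to 23.8%) and by the Inpp5f intron. The largest gains in CD11b+ cells were a pair of adjoining rows at the start of H13, a signal peptide peptidase gene (chr2:152669496-152669646 and chr2:152669647-152669759, both exonic). They went from 0.375% to 37.1% and 0.558% to 30.3%, so that a start without methylation in WT cells was partly methylated in R878H/+ cells. No row of more than 10 CpG cytosines at that start is listed for CD4+ cells.

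By gene, the median difference over all rows was negative in 38 of 38 genes with rows in CD11b+ cells and 38 of 39 in CD4+ cells. Phlda2, a gene that limits placental growth, had no row of more than 10 CpG cytosines in CD11b+ cells, and Zrsr1 was the exception in CD4+ cells with its single row. Gene medians ran from -13.5 (Nap1l5, 1 row) to -0.419 points (Nnat, 4 rows) in CD11b+ cells and from -16.7 (Igf2, 6 rows) to 8.50 in CD4+ cells. Losses above 20 points, called in 7.74% and 6.89% of all rows of the tables, occurred in 12 genes in CD11b+ cells and 20 in CD4+ cells. Trappc9 had 8 in 55 rows and 11 in 93, Kcnq1 8 in 34 and 7 in 47, and Plagl1 4 in 14 and 6 in 22. Genes with none in either cell type included Usp29, with 25 and 22 rows, Nespas (13 and 9), Mest (11 and 12), Commd1 (10 and 7), Herc3 (9 and 10), Peg3 (7 and 10) and Kcnq1ot1 (7 and 9). Apart from Usp29 these had few rows, so the absence of a called loss says little. The Snrpn domain, with the growth suppressor gene Ndn, the ligase adaptor gene Magel2 and the ubiquitin ligase gene Ube3a, had 1 to 4 rows a gene and medians between -2.39 and -10.9 points. Medians for Rtl1 (-5.60 and -9.66), Zim1 (-5.94 and -7.59), Sgce (-9.20 and -6.24), Commd1 (-8.92 and -8.35), Blcap (-4.04 and -9.33), Slc38a4 (-7.55 and -5.81) and Rasgrf1 (-6.23 and -6.53) were of the same order in CD11b+ and CD4+ cells.

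Site rows held more CpG dinucleotides than the others, although windows around starts select CpG-rich sequence and no rows matched on distance to a start were compared. In windows of 300 bases centered on a row, intermediate rows at sites had a median of 18 CpG dinucleotides in CD11b+ cells and 14 in CD4+ cells, those off the sites 6 and 5, and intermediate autosomal rows in no imprinted gene 5 and 5. The hexamer TGCCGC, the core letters of the ZFP57 motif, was searched on both strands (GCGGCA on the other). It stood in the windows of 38.8% and 47.8% of the site rows, in 8.70% and 13.3% of the rows off the sites, and in 4.95% and 4.93% of the intermediate rows elsewhere. The hexamer holds a CpG, and CpG-dense windows hold it more often. Intermediate rows elsewhere with at least 9 CpGs in the window in CD11b+ cells, or 11 in CD4+ cells, held it in 13.0% and 15.6%. These dense rows elsewhere had medians of -19.1 points (2395 rows) and -18.2 points (1255 rows), and 46.6% and 43.6% of them were called as losses. Site rows of the same density had -6.15 (39 rows) and -7.51 (36 rows), with 0 and 2 losses called, and dense rows off the sites had -10.3 (9 rows) and -19.0 (6 rows), with 2 losses called in each table. Lower means in R878H/+ cells were found in 91.2% and 89.0% of the dense rows elsewhere and in 66.7% of the dense site rows of each table. Among dense rows off the sites these shares were 77.8% and 100%. The dense rows elsewhere were not matched on lying near a start, and the part of CpG density in the differences was not tested. Of the printed sequences, the Peg13 row holds 1 hexamer, and a match or its absence says nothing of binding.

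Genes whose products keep imprints were read as a further group, from 10 listed genes of which 9 had rows. In CD11b+ cells their 53 rows had a median of -8.83 points with 5 called losses (9.43%), beside -6.60 points and 7.74% over the whole table. In CD4+ cells 66 rows had -7.08 with 6 (9.09%), beside -6.85 and 6.89%. Dnmt1, the maintenance methyltransferase, had medians of -5.77 and -5.43 points, and Uhrf1, its partner, -3.33 over 1 row and -3.95 over 3. Zfp57 and Trim28, which bind imprints, had -7.08 and -8.25 points in the CD11b+ table and, in the CD4+ table, -6.97 and -11.2. Dnmt3a itself had -12.9 over 24 rows and -8.30 over 27, with 3 and 4 called losses. Setdb1, Dppa3, Dnmt3l and Dnmt3b made up the rest, with medians from -3.52 to -12.4, and Zfp445 had no row of more than 10 CpG cytosines. The mutation itself cannot be read from tables of methylation, and these libraries hold no expression.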

How the data were processed

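DNA methylation was measured by WGBS (Zymo-Seq WGBS library kit) in splenic CD11b+ and CD4+ cells, with 18 library entries as grouped in the report. The authors mapped reads to mm10 with the BISCUIT workflow and ran metilene on CpG methylation ratios, and the submitters' processing notes name FastQC; tool versions and run settings of metilene are not given in the sources used here. The authors deposited 2 tables, 1 per cell type, in which each row is a region with its number of CpG cytosines (a count) and, for both groups, a methylation mean in percent. These rows have at least 10 CpG cytosines, and 58.2% (CD11b+) and 55.3% (CD4+) of them exactly 10; rows with more than 10 have a median of 13. The tables also hold the authors' difference, p-values and q-values per region, none of which was used. Read depth per sample is unknown, replicates were averaged before deposit and there is no value per mouse, so no test across mice and no replicate comparison was possible.

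Starts were read as 1-based on mm10 (GRCm38) and checked against the sequence: all 759 and 934 rows of the imprinted genes begin and end on a CpG cytosine. Gene bodies with 5 kb added on each side were taken from GENCODE M21, and 1 shared base counted as overlap. Imprint sites were windows of 2 kb on either side of any annotated start of 20 genes, or 1 to 5 kb upstream of H19. A loss or gain was called above 20 points in rows with more than 10 CpG cytosines, the limits of size and CpG number that the study set for its regions. The false discovery rate it also required was not applied, since it rests on the authors' q-values. Named are every locus, each intermediate row at an imprint site, the 3 largest losses and gains in each cell type and each called row at a site, with other rows by gene and, off the sites, examples chosen after their values were seen. Alternatives changed the number of CpG cytosines, the windows, the limits of 35% and 65%, the called size and the weighting. The genes, lists and windows were chosen with earlier results of these data known, and the imprinted genes are textbook examples. Python 3.11.15, pandas 2.3.3, numpy 2.4.6, matplotlib 3.10.9 and samtools 1.23.1 were used. The sequence of 1 row is not reported here.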

Additional observations from a re-analysis of the deposited data

How the results depend on the processing

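Of 120 alternatives over 16 results, 105 left a median or share within its 95% interval over rows, or a count within 1.5 times, 15 moved it and none reversed a direction. Rows of the same mice are no replicates, so these intervals carry no error between mice. Rows with more than 20 CpG cytosines gave medians of -11.56 points over 38 rows in CD11b+ cells and -9.459 over 56 in CD4+ cells for all rows, -7.077 over 10 intermediate rows in CD11b+ cells, 11 and 8 called rows in place of 37 and 52, and 84.2% of CD11b+ rows lower. Splitting on the mean of both genotypes gave -11.329 over 95 intermediate CD11b+ rows. With all listed rows, 71 and 92 rows were called and the whole CD11b+ table had a median of -6.546. A size above 10 points called 131 and 179 rows, and above 30 points 12 and 9. The split of intermediate rows into those at and off the sites and all its alternatives were chosen after seeing the data. Counting each gene once gave -2.115 at the sites in CD4+ cells, with Gnas and Nespas counted separately although they share rows. Medians of intermediate rows ranged from -8.25 to -2.057 (CD11b+) and from -8.841 to -2.115 (CD4+) at the sites, and from -17.538 to -10.865 and from -20.205 to -16.539 off them, so the ranges did not overlap. Where a value moved with fewer or more rows entering, that is how the alternative was built; otherwise the cause was not tested. No paired analysis was possible because the tables hold no value per mouse, and read depth, unknown here, limits every mean.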

Other observations

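A further 20 imprinted genes, listed from textbook knowledge and not among the 39, were read in the same way. In CD11b+ cells 16 of them had rows, with a median of -6.93 points over 161 rows, 155 of them lower in R878H/+ cells, 17 losses above 20 points (10.6%, beside 7.74% of the whole table) and 1 gain, at Atp10a, a phospholipid flippase gene. In CD4+ cells 19 had rows, with -7.23 points over 211 rows, all but 5 lower, and 23 losses (10.9%, beside 6.89%). Their intermediate rows had medians of -15.0 over 13 rows and -17.4 over 17, beside -16.1 and -15.2 over all intermediate rows of the tables. Cd81, a tetraspanin gene of the Kcnq1 domain, had medians of -24.1 over 3 rows in CD11b+ cells and -17.2 over 6 in CD4+ cells, and Ddc, the gene of aromatic amino acid decarboxylase beside Grb10, -15.1 over 17 rows and -10.4 over 23. Single rows of Asb4 reached -42.6 points in CD11b+ and -39.4 in CD4+ samples, and a row of Slc22a3, an organic cation transporter gene of the Igf2r domain, reached -47.3 in CD4+ cells. Mkrn3 and Peg12, paternally expressed genes of the Snrpn domain, each had a single row in CD11b+ cells with a higher mean in R878H/+ cells, from 32.2% to 40.9% and from 24.4% to 34.7%, and lower medians in CD4+ cells (-6.15 and -7.64 points).

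Rows of exactly 10 CpG cytosines, left out of the report's counts, gave a similar spread at the imprint sites. Of 28 such intermediate rows in CD11b+ cells 12 were higher in R878H/+ cells, with a median of -5.73 points, and of 39 in CD4+ cells 9 were higher, with a median of -9.05 points. The largest gain among them lay between Nespas and a Gnas start in CD4+ cells (43.7% to 64.7%), and a Grb10 row in CD11b+ cells went from 51.7% to 70.4%.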
